A study of Nannochloropsis oceanica strain IMET1 with 6 samples.

Results

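NO06G03670 is the gene disrupted in HLM23, an insertional mutant of the unicellular marine alga Nannochloropsis oceanica strain IMET1, and the literature describes its product as an APETALA2-like (AP2-like) transcription factor. It was taken by its ID from the deposited gene table and is 1 of the 9552 genes listed there. The HLM23 group held 3 libraries with the genotype given as NO06G03670-, and the wild type (WT) group held 3 libraries of the strain without that mutation. Both strains were cultivated alike: 25 ml shake flask cultures in artificial sea water with a commercial nutrient mix were started at an optical density of 0.1 (750 nm). Light was given for 16 h of each day at 600 μmol m-2 s-1, the temperature was 25 °C, and the air was enriched to 0.2% CO2. Harvest took place on day 3, when 1 h of light remained. HLM23 is a single mutant strain, so differences that it carries besides the disrupted gene cannot be told apart from those of the disruption. No label states that the replicates grew in separate flasks, and p-values therefore reflect only how far these 6 samples scattered, which may be technical.

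AP2-domain proteins are a family of DNA-binding transcription factors best known from land plants, where they act in flower and seed development, stress responses and metabolism. In Arabidopsis the family member WRINKLED1 switches on genes of glycolysis and fatty acid synthesis in seeds. Nannochloropsis species are studied because they store much of their carbon as neutral lipid, and the series concerns gene targets for raising that store. In insertional mutagenesis a DNA cassette integrates at an unplanned place in the genome, where it can break a reading frame, end a transcript early or change its amount. Neither the position of the cassette within NO06G03670 nor a lipid or growth measurement was used here, so the values concern transcript amount alone.

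The deposited table places NO06G03670 at 1004518 to 1013731 of chromosome 6, on the minus strand. The build behind these coordinates is not given in any source at hand. By start position NO06G03670 is the 341st of the 441 genes listed on that chromosome. Its listed length is 9030 bases, 4.73 times the median gene length of 1907.5 bases, and 74 of the 9552 genes are longer. The gene spans 9214 bases, so only 184 bases, or 2.00% of the span, lie outside the listed length. The median gene has 238 such bases, and NO06G03670 is thus among the longest genes of the table while holding less than the median amount of such sequence. None of the 9552 IDs matched the available reference table of 160 organelle genes, so exons, untranslated regions and the protein sequence were not used here.

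The libraries held 15331673 to 18711316 reads counted to genes, as implied by the deposited values. Spearman correlations across genes ran from 0.969 to 0.988 within a strain and from 0.905 to 0.976 between the strains. The highest between the strains joined HLM23 replicate 2 and WT replicate 2, which also lay closest to each other on the first principal component (-24.8 and 20.2). The change of NO06G03670 is therefore also given without these libraries.

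The transcript of NO06G03670 was lower in HLM23 than in the WT and remained easily detected. Its normalised read count, which is the number of reads divided by the authors' size factor of the library, was 1073, 982 and 777 in HLM23 replicates 1, 2 and 3, against 2164, 1664 and 1682 in WT replicates 1, 2 and 3. The groups did not overlap, HLM23 replicate 3 was the lowest library of all, and WT replicate 1 was the highest. The HLM23 mean was 944 ± 152 and the WT mean 1837 ± 284 (SD, n = 3 each). The HLM23 libraries stood at 58.4%, 53.4% and 42.3% of the WT mean, and over the 9 possible pairs of an HLM23 and a WT library the ratio ran from 35.9% to 64.5%. In RNA from whole cultures, fewer cells with the transcript and less transcript per cell cannot be told apart.

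This difference exceeded the replicate spread. The log2 fold change was -0.96 ± 0.18 (SE), with a limma adjusted p of 0.0026 over all 9452 genes tested. The 95% confidence interval of this fit ran from -1.35 to -0.58, which places the HLM23 level between 39.3% and 67.1% of the WT level around an estimate of 51.3%. An exact permutation test on this gene alone gave a two-sided p of 0.10, the smallest that 3 libraries against 3 allow. Without both replicate 2 libraries the log2 fold change was -1.06 (limma adjusted p = 0.0067). With each library left out in turn it lay between -1.06 and -0.83, weakest without HLM23 replicate 3 (-0.83) and without WT replicate 1 (-0.84).

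**Figure D1:**
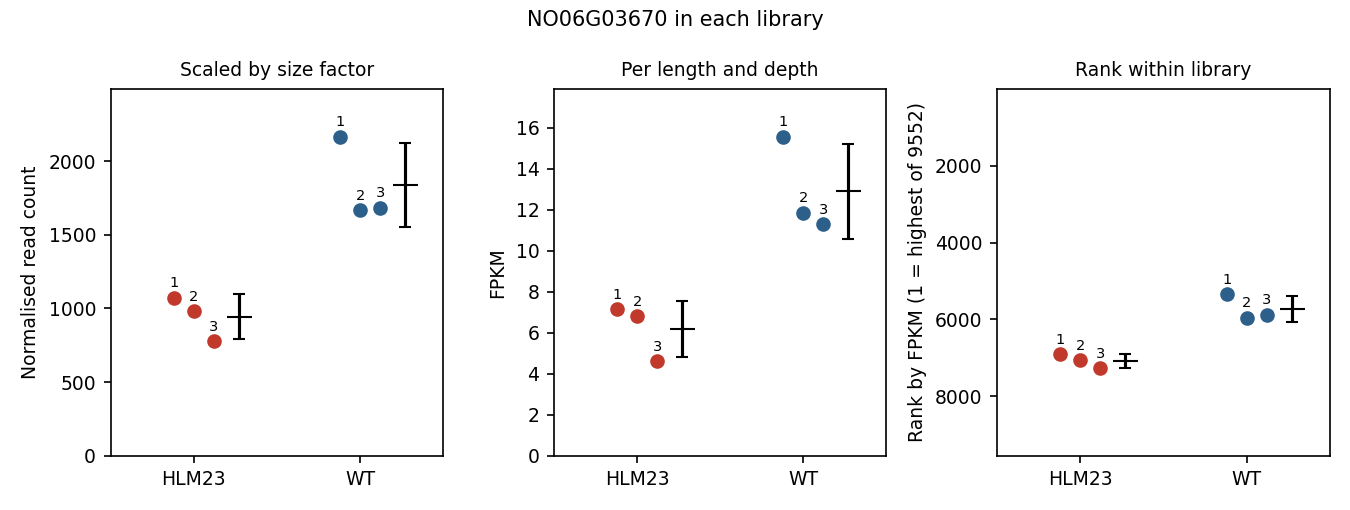
Level of NO06G03670 in each library as normalised read count, as FPKM and as rank by FPKM among all genes of the library (axis reversed, rank 1 at the top). Points are libraries with their replicate numbers, and the bars beside them give the mean ± SD of 3 libraries. In all 3 panels every HLM23 library lies below every WT library, and HLM23 libraries range from 777 to 1073 normalised reads.

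The reads behind the values numbered 988, 1007 and 777 in HLM23 and 2306, 1737 and 1668 in the WT. The exact 95% Poisson interval was widest in relative terms for HLM23 replicate 3, at 723 to 834 reads, and the highest HLM23 bound of 1071 reads lay below the lowest WT bound of 1589. These intervals cover counting error only. The counting error was 3.15% to 3.59% of the count in HLM23 and 2.08% to 2.45% in the WT, while the coefficient of variation of the normalised count between replicates was 16.1% in HLM23 and 15.4% in the WT. The residual SD of the gene in the fit, 0.23 on the log2 scale, was close to the median of all tested genes (0.26).

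Per unit of gene length, NO06G03670 was a moderately to weakly expressed gene in both strains. Its FPKM (fragments per kilobase, scaled to the reads counted in the library) was 7.14, 6.82 and 4.60 in HLM23, against 15.6, 11.9 and 11.3 in the WT. HLM23 averaged 6.19 ± 1.38 FPKM and the WT 12.9 ± 2.32 FPKM (SD, n = 3 each). The lengths implied by its FPKM values were 9030 bases in all 6 libraries, the same as the length listed. On this scale HLM23 stood at 47.9% of the WT mean, a little lower than by normalised reads, because FPKM divides by the library total and not by the size factor. 

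Ranked by FPKM within each library, the gene stood at places 6904, 7067 and 7278 of 9552 in HLM23, against 5342, 5955 and 5882 in the WT. It thus exceeded 27.7%, 26.0% and 23.8% of all genes in HLM23, against 44.1%, 37.7% and 38.4% of them in WT libraries. The ranks did not overlap between the strains, with mean places of 7083 ± 188 for HLM23 and 5726 ± 335 for the WT (SD, n = 3 each, exact permutation p = 0.10, the smallest possible). Set against the median gene of the same library, its FPKM was 0.425, 0.378 and 0.324 times that median in HLM23 and 0.822, 0.646 and 0.649 times in the WT. The FPKM of the gene was therefore below that of the median gene in all 6 libraries, the WT libraries included.

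Because the gene is long, it drew many more reads than this level per length would give a gene of median length. By normalised read count it ranked 2781, 3122 and 3688 of 9552 in HLM23 and 1349, 1785 and 1854 in the WT. Those counts were 1.95, 1.75 and 1.43 times the median gene's in HLM23 and 3.84, 2.96 and 2.99 times in the WT. A count summed over 9030 bases does not say which bases were covered, so transcript before and after an insertion, or transcript that runs into a cassette, was not told apart. The library kit is not named as a directional one and no strand setting is given, so reads from the opposite strand over the gene could not be separated either.

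Across all genes tested, 14.3% were called lower in HLM23 at an adjusted p under 0.05 (1356 of 9452) and 14.5% higher (1374), or 28.9% in all. In 22.8% of tested genes every HLM23 library lay below every WT library, as it did for NO06G03670. The fall of NO06G03670 was among the deeper ones over all tested genes and near the middle of those called lower. Of the 9452 tested genes, 608 (6.43%) had a lower log2 fold change, and among the 1356 genes called lower it took place 538 by depth of fall. Of those 1356 genes, 60.3% fell less than it did. With 1 library left out, fold changes and the genes called both moved, and this share ran from 25.9% to 60.2%. The lowest share came without WT replicate 1 (place 496 of 669) and the highest without HLM23 replicate 1 (place 330 of 830). Without WT replicate 3 it was 48.1% (place 349 of 672). With all libraries kept and an adjusted p under 0.01 it was 30.6% (place 413 of 595). Over all 18 alternatives it ran from 25.9% to 65.9%, highest with equal library totals. The median gene called lower had a log2 fold change of -0.87, with the middle 50% between -1.14 and -0.66, and NO06G03670 at -0.96 lies within that range. By p-value it stood at place 562 of 9452 in the limma fit and, in the authors' deposited table, at place 639 of 9552. That table gives it a log2 fold change of -0.96 and an adjusted p of 1.67e-05.

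**Figure D2:**
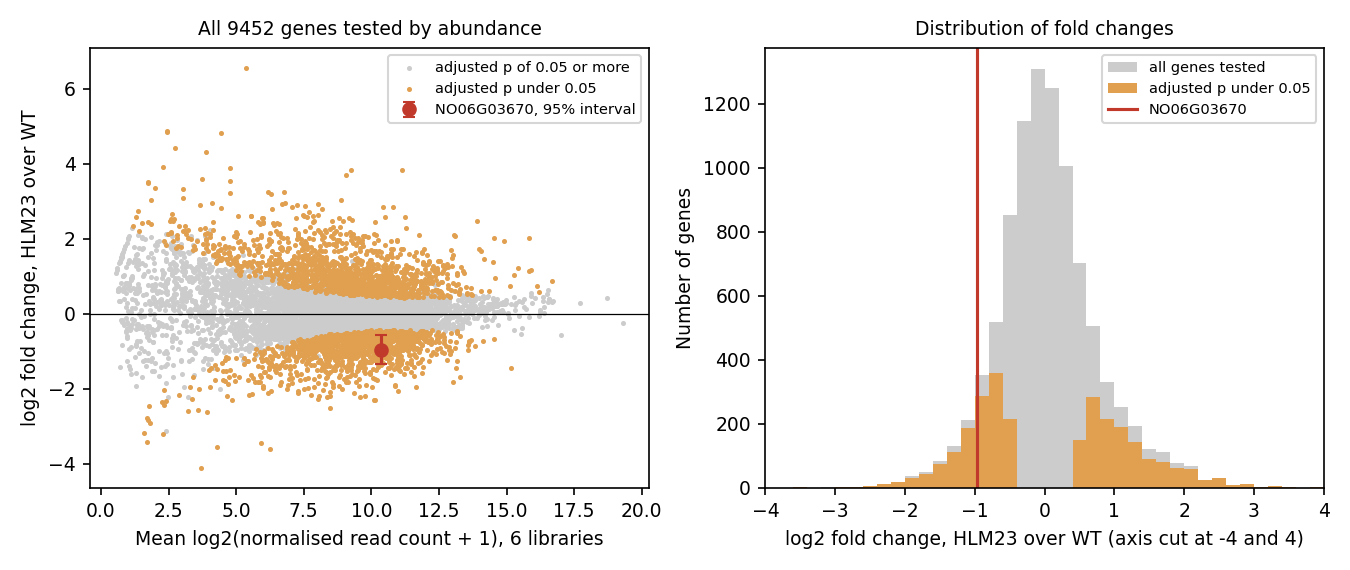
Left, log2 fold change (HLM23 over WT) of each tested gene against its mean log2 level in the 6 libraries, with genes past the adjusted threshold in orange and NO06G03670 in red with its 95% interval. Right, number of genes by log2 fold change, where the red line marks NO06G03670 at -0.96, within the range of the genes called lower.

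The share of genes with a deeper fall was similar among genes with many reads, without an upper bound, and among genes on its chromosome. Among 3130 genes with a mean of at least 1000 normalised reads, 149 (4.76%) fell further, all of them called. Among 431 tested genes on chromosome 6, 30 (6.96%) had a lower log2 fold change, and 68 (15.8%) were called lower in HLM23 against 57 (13.2%) higher. These shares are close to those of the whole table.

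Gene length moved with the strain difference and touches this gene. Among the 1891 longest tested genes (20% of those tested), the median log2 fold change was -0.13, against -0.0022 over all tested genes. Of these, 20.9% were called lower and 13.6% higher. Among the 74 genes longer than NO06G03670, 18 were called lower (24.3%) and 12 higher (16.2%), with a median of -0.14, and 5 fell further than it did. After correction of every library for its own length trend, NO06G03670 had a log2 fold change of -0.77 ± 0.16 (SE, limma adjusted p = 0.0049), and 9.99% of tested genes then had a lower one. By depth of fall it then took place 802 among 1362 genes called lower, of which 41.1% fell less, against 60.3% as reported. It thus stayed well below the level of genes of like length, while the part of the length trend in its fall was not tested beyond this correction.

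**Figure D3:**
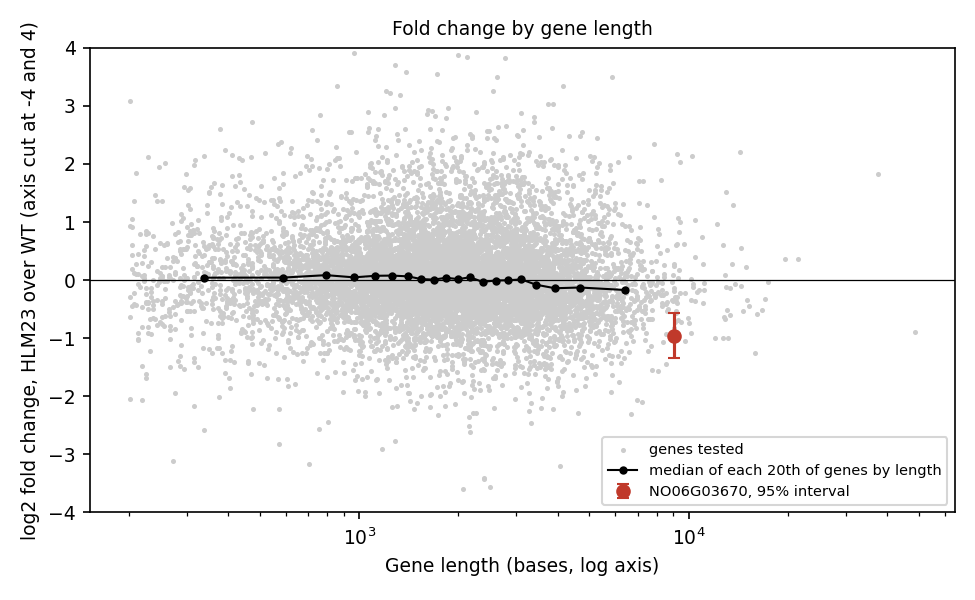
Log2 fold change (HLM23 over WT) of each tested gene against gene length on a log axis, with the median of each 20th of the genes by length as a black line and NO06G03670 in red with its 95% interval. The line falls below 0 among the longest genes, where the longest 20% have a median of -0.13, and NO06G03670 at -0.96 lies below it.

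Neither gene directly beside NO06G03670 had a lower mean in HLM23, and neither passed the threshold. On the low side, which is the side of its 3′ end, the nearest gene (1002117 to 1004317) lies 200 bases away on the same strand. It had 387, 271 and 311 normalised reads in HLM23, against 229, 283 and 237 in the WT. Those groups overlap, and the log2 fold change was 0.36 (95% interval -0.11 to 0.83, limma adjusted p = 0.23). On the high side, beyond its 5′ end, the nearest gene (1015542 to 1015796) lies 1810 bases away on the opposite strand and is read away from it. It had 110, 132 and 150 normalised reads in HLM23, against 81.7, 83.4 and 89.8 in the WT. Those groups do not overlap, yet the log2 fold change of 0.60 (95% interval 0.05 to 1.16) did not pass the adjusted threshold (limma adjusted p = 0.096).

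Among the 10 nearest genes on each side, between 977021 and 1049053, 4 of 20 passed the threshold (20.0%, against 28.9% of all tested genes). Of these, 2 were higher and 2 lower in HLM23. The largest rise was that of a minus-strand gene at 993522 to 997455, 7062 bases from NO06G03670. It had 674, 421 and 423 normalised reads in HLM23, against 127, 217 and 183 in the WT (log2 fold change 1.52, limma adjusted p = 0.0018). Every HLM23 library was well above every WT library there.

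A minus-strand gene 2600 bases beyond the 5′ end (1016332 to 1023376) had 807, 1130 and 690 normalised reads in HLM23, against 1658, 1382 and 1315 in the WT (log2 fold change -0.75, limma adjusted p = 0.014). HLM23 replicate 2 was the nearest to the WT. A gene at 1030325 to 1032704 had 79.3, 98.5 and 46.0 normalised reads in HLM23, against 161, 162 and 121 in the WT (log2 fold change -1.04, limma adjusted p = 0.029), and was the only neighbour with a lower log2 fold change than NO06G03670. The gene at 1047728 to 1049053 had 796, 735 and 889 normalised reads in HLM23, against 307, 492 and 599 in the WT (log2 fold change 0.84, limma adjusted p = 0.019). Without overlap between the strains, 7 of the 20 neighbours were lower in HLM23, against 22.8% of all tested genes, and 4 were higher, against 24.2%. The 16 neighbours that did not pass the threshold had log2 fold changes from -0.36 to 0.82, and the median of all 20 was -0.065. Without HLM23 replicate 3, or without WT replicate 1, 2 neighbours passed the threshold.

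**Figure D4:**
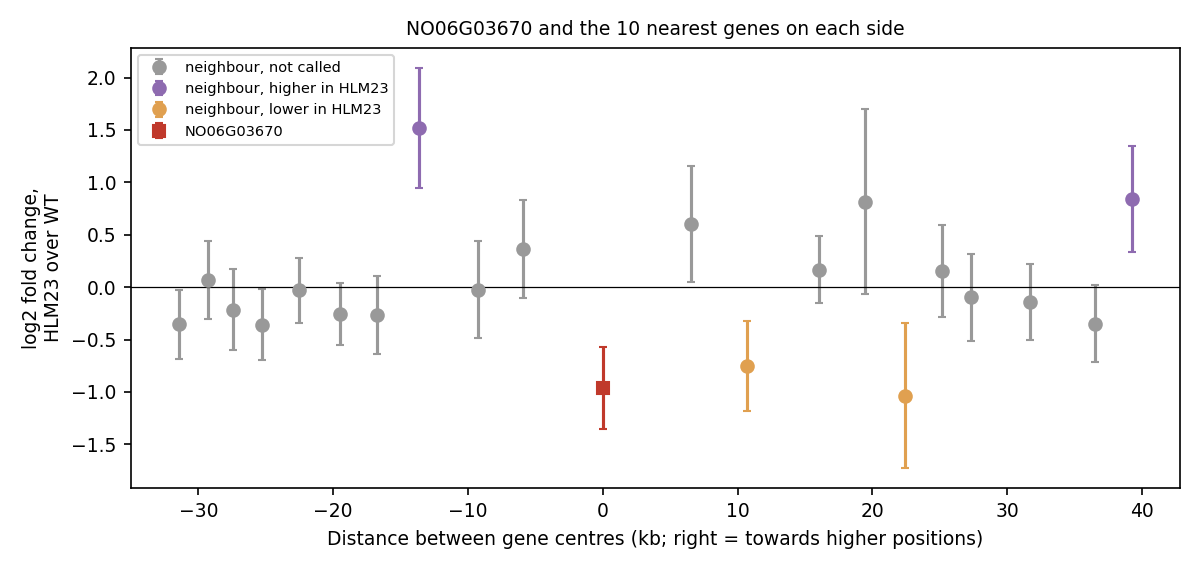
Log2 fold change (HLM23 over WT) with 95% interval for NO06G03670 (red square) and the 10 nearest genes on each side, against the distance between gene centres in kb. Among the 20 neighbours, 2 were called higher and 2 lower, and both genes directly beside NO06G03670 lie above 0 without passing the adjusted threshold.

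Other genes followed the library-by-library pattern of NO06G03670 closely. Likeness was measured as the root mean square difference between genes, over the 6 libraries, of log2(normalised read count + 1) after taking away each gene's own mean. Among 7939 other genes with a mean of at least 100 normalised reads, 8 came within 0.1 of NO06G03670. The closest was NO09G01840 at 0.059, a gene of 12708 bases (chromosome 9, minus strand, 565092 to 578010). It had 1098, 1099 and 847 normalised reads in HLM23, against 2239, 1868 and 1916 in the WT, so the HLM23 mean stood at 50.5% of the WT mean. NO18G01480 came next at 0.064, with 374, 353 and 271 normalised reads in HLM23, against 769, 635 and 658 in the WT. It lies on the plus strand of chromosome 18 (486291 to 490567), and its length is 2286 bases. Both shared with NO06G03670 the lowest value in HLM23 replicate 3 and the highest in WT replicate 1.

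The reversed pattern was also found, and 6 of the 7939 genes came within 0.1 of it. The closest was NO08G03020 at 0.084, a gene of 204 bases (chromosome 8, minus strand, 838367 to 839055). It had 331, 319 and 428 normalised reads in HLM23, against 145, 177 and 198 in the WT, with its highest value in HLM23 replicate 3 and its lowest in WT replicate 1. NO20G01920, a gene of 1143 bases (chromosome 20, minus strand, 577684 to 579088), followed at 0.091. Its normalised reads were 854, 790 and 1064 in HLM23, against 361, 517 and 457 in the WT. These 4 genes were picked for their likeness over the same libraries, so their values are a description. The files give no description of them.

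**Figure D5:**
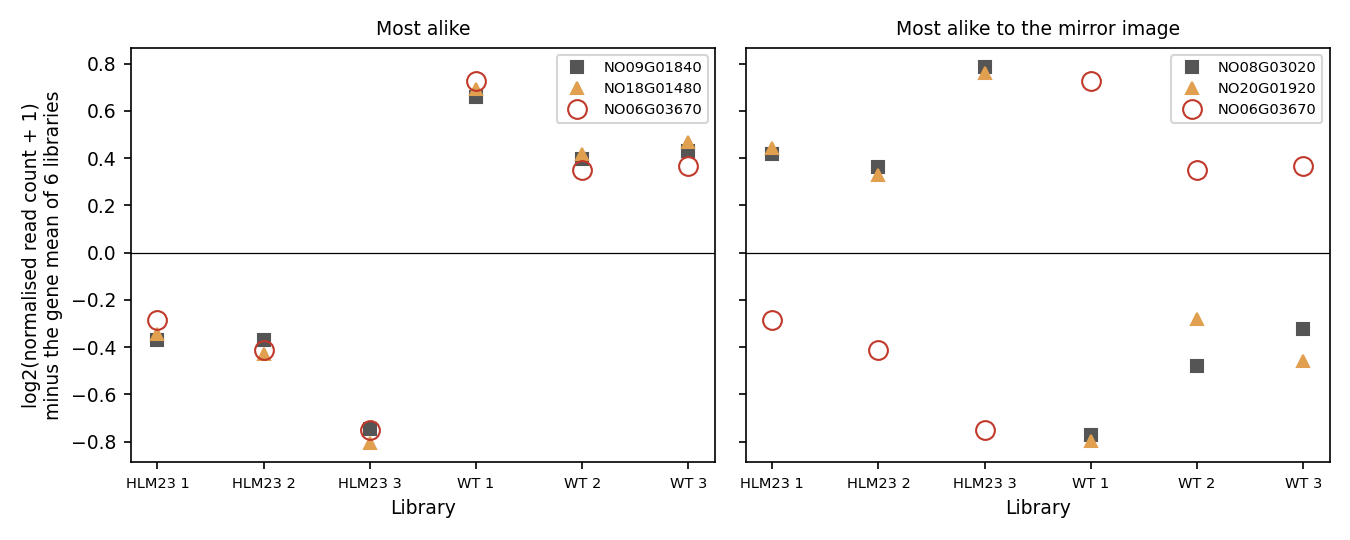
Log2(normalised read count + 1) minus the gene's mean over the 6 libraries, for NO06G03670 (open red circles) and the 2 genes closest to its pattern (left) or to its reversed pattern (right), by library. In the left panel the symbols nearly coincide in every library, with NO09G01840 at a root mean square difference of 0.059, and in the right panel they mirror each other about 0.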

How the data were processed

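Messenger RNA libraries of 3 HLM23 and 3 WT samples were prepared from 1 μg of RNA and sequenced as paired-end reads by a company, per the labels' protocols. Per the submitters' processing notes, the tools were DESeq2, featureCounts, HISAT2 and fastp, without versions. The 6 sample columns deposited by the authors hold a signal in which every value is a whole multiple, within 0.001 of a read, of 1 step per library, the form that whole reads take after division by size factors. The reads given for the gene were computed from these steps. FPKM, log2 fold changes, p-values and adjusted p-values are also those deposited by the authors, per the file headers. Neither scale removes a length trend that differs between libraries.

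Titles gave the groups. The 9452 genes whose mean reached 1 were kept, and 100 were left out. On log2(value + 1), limma 3.58.1 (R 4.3.3) was run with a mean-variance trend, 2 groups and Benjamini-Hochberg adjustment over all tested genes at 0.05. Fold changes on this scale understate those of low genes. On simulated data for this comparison (9452 genes), recovery was 89% for 100 genes changed 2-fold and 100% for 100 changed 4-fold. Genes left as they were made up 2.58% of the calls. Only these genes were changed, no low gene was among them, and the simulated libraries had no length trend and like spread. The shares may therefore differ in the real libraries. Permutation tests used scipy 1.17.1. A count model was not run, because an automatic test for whole reads does not accept columns whose step lies within 1% of 1.

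NO06G03670 was taken by ID, the genes alike to it by the measure given in the text, and neighbours by position. The gene, the neighbour list and the tests were chosen with earlier results of these data known. Alternatives were 2 other pseudocounts (0.1 and 10), no filter, a minimum mean of 10, equal library totals, removal of a length trend, FPKM, limma voom, the authors' values, a replicate block, each library left out, both replicate 2 libraries left out and a threshold of 0.01.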

Additional observations from a re-analysis of the deposited data

How the results depend on the processing

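NO06G03670 kept its direction and stayed past its threshold in all 18 alternatives run. The deepest fall was -1.07 (log2), under equal library totals, and the shallowest -0.77, after correction for gene length. The adjusted p was lowest at 1.67e-05 (the authors' deposited table) and highest at 0.017 (limma, without WT replicate 1). Equal library totals moved the median of all genes to -0.11, and FPKM moved it to -0.11 as well. Relative to that median the gene stood at -0.96 with equal totals and at -0.95 with FPKM, as against -0.96 as reported. The exact test could not go below 0.10 with any pseudocount. The mean rank of the gene was 7083 in HLM23 and 5726 in the WT by FPKM, but 3197 in HLM23 and 1663 in the WT by normalised read count, which is not divided by length. Genes called numbered 2730 as reported, 1303 at an adjusted p under 0.01 and 1527 to 2655 with 1 library left out. They split into 1374 higher and 1356 lower as reported, 1024 and 1603 with equal totals, and 999 and 1473 with FPKM. Neighbours called numbered 4 as reported, 1 at an adjusted p under 0.01, 2 to 4 with 1 library left out, and 5 with equal totals or FPKM. With the replicate block the log2 fold change of the gene was -0.96 (limma adjusted p = 0.0025), with 2635 genes and 4 neighbours called. The main fit used no pairing by replicate number. Between the HLM23 and WT libraries of the same number, deviations from the strain means had correlations of -0.069, -0.11 and 0.15 for numbers 1, 2 and 3.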
